A study of Mus musculus and Homo sapiens with 8 samples.

Results

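The p53 target genes described here are 41 genes that the transcription factor p53 is known to switch on. They were taken from a named list and grouped by role into cell cycle arrest, apoptosis, repair, metabolism and other roles. Membership rests on the names in that list. Of the 41 symbols, 39 were among the 20296 genes listed for human KU812 cells, and EDA2R and SPATA18 were not listed. Among the 17097 genes listed for mouse LSK cells, 35 of the 41 were found. Tnfrsf10a, Tigar, Tp53i3, Cmbl, Susd6 and Trim22 were not listed there under those symbols. Both species listed 33 of the genes.

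Messenger RNA was sequenced in 8 libraries after loss of ANP32B, an acidic nuclear phosphoprotein of the histone chaperone class. KU812, an established human chronic myelogenous leukemia line with basophil and erythroid features, carried a short hairpin RNA against ANP32B (shANP32B, 2 libraries) or the control hairpin shNC (2 libraries). LSK cells, a mouse bone marrow gate that holds stem cells and early progenitors, came from C57BL/6 animals of the genotype Anp32b-KO (KO, 2 libraries) or WT (2 libraries). The sex and age of the mice, the deleted exons and any Cre driver are not stated in the labels. No other allele or agent is named for either group. The labels name 1 hairpin per arm. They leave unsaid whether the libraries of a group come from different animals or cultures, and the p-values rest on the spread between libraries alone, part of which may be technical.

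p53 binds DNA as a tetramer, at a site made of a pair of half-sites, and raises transcription of nearby genes when DNA damage, nucleotide shortage or ribosome stress stabilises it. Its targets slow the cell cycle, start apoptosis through BCL2 family proteins and death receptors, repair DNA, and tune metabolism and autophagy. In the blood system p53 restrains the expansion of stem cells and progenitors and removes damaged ones. Several of its targets also respond to other regulators, among them the integrated stress response and growth factor signalling.

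In the mouse, 3 of the genes carried a pair of half-sites close to the transcription start, and their sequences show what such a site looks like. RefSeq promoter windows (GRCm38.p6, 300 bases, from 250 before the start to 50 after it) were at hand for 27 of the 35 genes listed in LSK cells. An exact match to the p53 half-site consensus, a 10-base motif that reads the same on both strands, was present in 7 of the 27 (25.9%), against 2582 of 27025 genes with a window (9.55%). A pair of half-sites with at most 2 mismatches in all and at most 1 base between them was present in 3 of the 27 (11.1%), against 218 of all 27025 genes (0.807%). Capitals mark the paired half-sites, each shown 5′ to 3′ on the strand of its gene.
Ccng1: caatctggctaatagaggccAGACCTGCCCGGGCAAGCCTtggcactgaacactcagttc
Bax: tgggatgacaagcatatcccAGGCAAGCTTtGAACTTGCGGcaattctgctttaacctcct
Rps27l: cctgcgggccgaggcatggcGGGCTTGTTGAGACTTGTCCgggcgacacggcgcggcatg
The Ccng1 stretch lies on the minus strand at chr11:40755442-40755501, upstream of the gene and outside any annotated gene. Its paired half-sites span positions -195 to -176 from the start and hold 1 mismatch. The Bax stretch lies on the minus strand at chr7:45467059-45467119, within the annotated gene Gm45808 but in none of its exons. Its pair spans positions -201 to -181 with 2 mismatches and a 1-base spacer, the lower-case t between the capitals. The Rps27l stretch lies on the plus strand at chr9:66946276-66946335, inside Rps27l itself and in no exon. It sits at positions -117 to -98 from the downstream of the RefSeq starts of Rps27l and holds 1 mismatch. The windows of Btg2, Plk2 and Plk3 held no exact half-site, which says only that these letters are not in those windows. A match is a description of the sequence and no evidence of binding.

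Library totals ran from 24416691 to 28209409 counts in KU812 cells and from 10549358 to 15683480 counts in LSK cells. Levels are given as CPM, the counts of a gene scaled to library size and composition. A floor of 3 counts stood for 0.107 to 0.122 CPM in KU812 libraries and 0.196 to 0.286 CPM in LSK libraries, and it covers counting error only. Both perturbations left less mRNA of the targeted gene in each library. ANP32B had 40.3 and 38.1 CPM in shANP32B cells, against 250 and 285 CPM in shNC cells (log2 fold change -2.77, SE 0.12, adjusted p = 5.18e-08, edgeR quasi-likelihood test). Anp32b had 201 and 248 CPM in KO cells, against 793 and 730 CPM in WT cells (log2 fold change -1.76, SE 0.17, adjusted p = 0.148). All 8 genes fixed for the LSK gate were listed, with summed levels of 2112 and 2014 CPM in KO cells, against 2096 and 1879 CPM in WT cells. None of the 8 was called, and 6 had positive log2 fold changes. Ly6a was lower in both KO libraries (37.8 and 43.4 CPM, against 60.2 and 45.5 CPM in WT cells). Hlf was higher in both (239 and 237 CPM, against 178 and 197 CPM). All 11 genes fixed as marks of the KU812 line were listed. A chi-square test of the counts within each pair gave 9.74 per degree of freedom for shANP32B, 19.6 for shNC, 7.70 for KO and 47.7 for WT, so the WT libraries stood furthest apart.

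In KU812 cells p53 targets passed the threshold about as often as all genes tested did (15.8% against 16.6%). Most of those that passed belonged to cell cycle arrest, and they changed in both directions. BTG2 and PLK3 rose in shANP32B cells, and PLK2, CCNG1 and GADD45A fell. The hydrolase gene CMBL fell as well. None of the apoptosis, repair or other genes passed the threshold, which throughout is an adjusted p of 0.05 (edgeR quasi-likelihood test, two-sided, Benjamini-Hochberg over all genes tested). A gene past it is called.

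Of the 39 listed genes, 38 passed the filter on low counts and were tested, and 6 of the 38 were called. In this comparison 16.6% of all 16529 genes tested were called, so the share among the p53 targets (15.8%) was close to the background. The 2 that rose compare with 7.53% of all genes and the 4 that fell with 9.06%. With library totals alone as the scaling, 1474 genes rose and 1182 fell, against 1244 and 1497 with the composition factor, and among the p53 targets 5 rose and 3 fell. Both shANP32B libraries lay above both shNC libraries for 10 of the 38 genes and below them for 13, against 29.5% and 28.9% of all genes. The median log2 fold change of the 38 was -0.044 (quartiles -0.31 and 0.36), beside 0.0041 over all genes (quartiles -0.29 and 0.32), and with library totals alone it was 0.012. Without the second shNC library 5 rose and 9 fell, and without the second shANP32B library 1 rose and 3 fell. PHLDA3, an inhibitor of AKT signalling, was not tested, with 1 and 1 counts in shANP32B cells, against 4 and 6 counts in shNC cells.

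**Figure D1:**
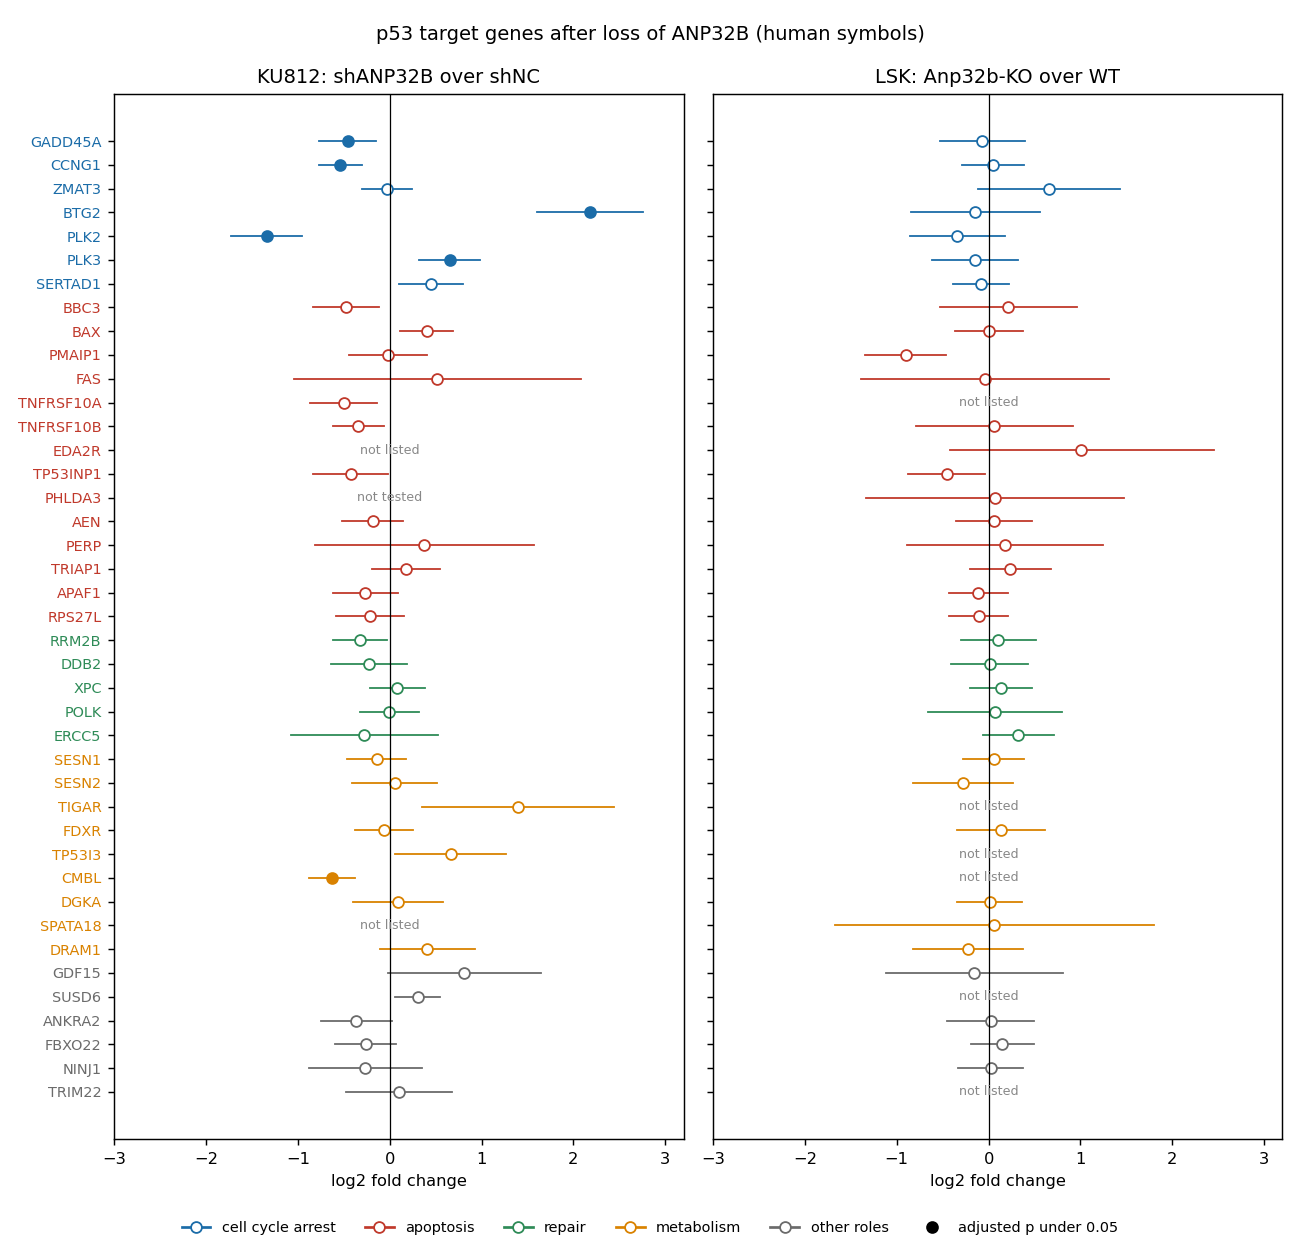
Log2 fold change of each p53 target gene, shANP32B over shNC in KU812 cells (left) and KO over WT in LSK cells (right), with 95% confidence intervals as bars and role groups in colour. Filled points have an adjusted p under 0.05: 6 genes in KU812 cells, 5 of them in the cell cycle arrest group, and none in LSK cells.

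Among the 7 arrest genes 5 were called. BTG2, an antiproliferative protein that recruits the CCR4-NOT deadenylase, had 172 and 307 CPM in shANP32B cells, against 36.7 and 68.8 CPM in shNC cells. The groups did not overlap, although each pair differed widely within itself (239 ± 95.8 CPM in shANP32B cells and 52.8 ± 22.7 CPM in shNC cells, SD, n = 2 each). BTG2 rose 4.55-fold (log2 fold change 2.18, SE 0.27, adjusted p = 0.000155), with a range of 1.69 to 2.70 over 10 alternative settings, in all of which it was called. PLK3, a stress-responsive polo-like kinase, had 27.1 and 29.8 CPM in shANP32B cells, against 17.6 and 18.7 CPM in shNC cells. It rose in both libraries by a similar amount (log2 fold change 0.65, SE 0.16, adjusted p = 0.012), and the call was lost without the second shANP32B library (adjusted p = 0.144).

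PLK2, the related polo-like kinase, went the other way. It had 10.1 and 8.83 CPM in shANP32B cells, against 23.8 and 24.0 CPM in shNC cells, and it fell 2.53-fold (log2 fold change -1.34, SE 0.18, adjusted p = 0.000321). The libraries of each group lay close together and far from those of the other. CCNG1, which encodes cyclin G1, a partner of phosphatase PP2A that feeds back on MDM2, had 150 and 155 CPM in shANP32B cells, against 236 and 209 CPM in shNC cells. It fell without overlap (log2 fold change -0.54, SE 0.11, adjusted p = 0.0048). It is the human counterpart of the mouse gene whose paired half-sites are shown above. GADD45A, a stress-induced inhibitor of CDK1, had 26.7 and 24.0 CPM in shANP32B cells, against 36.5 and 33.1 CPM in shNC cells. It fell by the smallest margin of the called genes (log2 fold change -0.46, SE 0.15, adjusted p = 0.0459). That call was lost with library totals alone (adjusted p = 0.0826) and without the first shNC (0.0998), the first shANP32B (0.129) or the second shANP32B library (0.339).

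Both remaining arrest genes fell short of the threshold. SERTAD1, a regulator of CDK4 and E2F activity, had 23.5 and 23.4 CPM in shANP32B cells, against 17.6 and 16.7 CPM in shNC cells (log2 fold change 0.45, adjusted p = 0.0716). ZMAT3, an RNA-binding regulator of splicing and mRNA stability, had 59.9 and 66.9 CPM in shANP32B cells, against 61.0 and 68.4 CPM in shNC cells. Its groups overlapped (log2 fold change -0.028, 95% confidence interval -0.30 to 0.25).

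**Figure D2:**
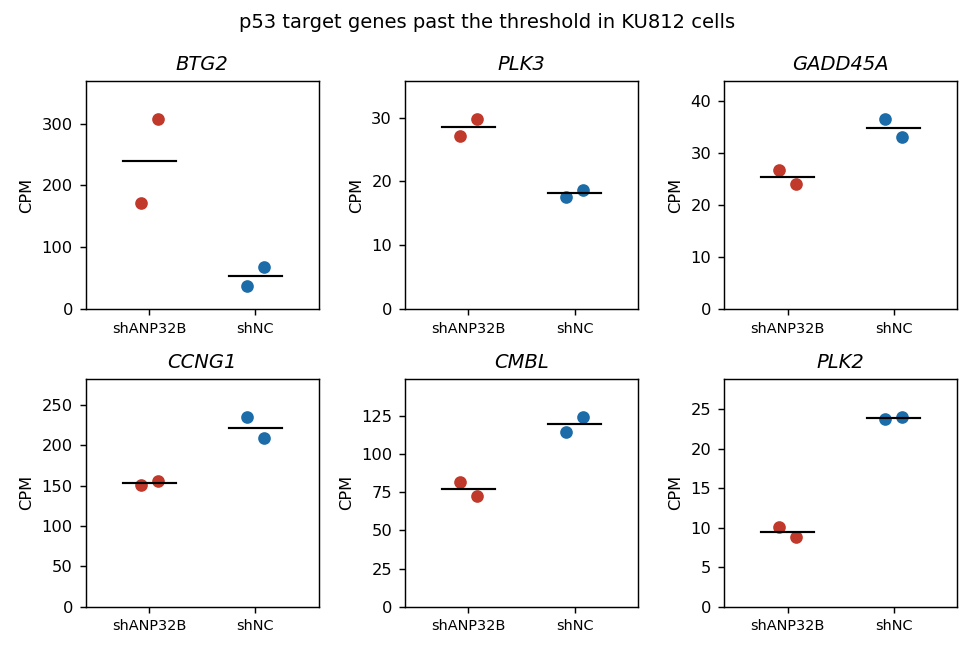
Levels in CPM of the 6 p53 target genes called in KU812 cells, with shANP32B left and shNC right. Points are libraries and lines are means (n = 2 each). BTG2 and PLK3 are higher in both shANP32B libraries, and GADD45A, CCNG1, CMBL and PLK2 are lower in both.

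Apoptosis genes showed small differences that ran both ways. Of the 12 tested none was called, with log2 fold changes from -0.50 to 0.52, a lowest adjusted p of 0.0569 and 5 genes at an unadjusted p under 0.05, a level that 5047 of all 16529 genes reached. That lowest value belonged to BAX, the pore-forming effector of the BCL2 family, with 51.5 and 46.5 CPM in shANP32B cells, against 35.7 and 38.5 CPM in shNC cells (log2 fold change 0.40). BBC3, which encodes the BH3-only protein PUMA, lay on the other side. It had 17.1 and 19.1 CPM in shANP32B cells, against 27.6 and 22.7 CPM in shNC cells (log2 fold change -0.48, adjusted p = 0.0705). The groups of neither gene overlapped. PMAIP1, which encodes the BH3-only protein NOXA, had 17.1 and 24.5 CPM in shANP32B cells, against 18.5 and 23.6 CPM in shNC cells. These overlapped (log2 fold change -0.017, 95% confidence interval -0.44 to 0.41).

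The TRAIL death receptors DR4 and DR5 were lower in both shANP32B libraries without passing the threshold. TNFRSF10C and TNFRSF10D, of the same receptor family and among the further targets below, were higher in both. Their log2 fold changes were 1.73 (called, from few reads) and 0.23 (not called). TNFRSF10A, the receptor DR4, had 17.3 and 14.5 CPM in shANP32B cells, against 22.4 and 22.6 CPM in shNC cells (log2 fold change -0.50, adjusted p = 0.0613). TNFRSF10B, the receptor DR5, had 51.2 and 47.2 CPM in shANP32B cells, against 65.8 and 58.9 CPM in shNC cells (log2 fold change -0.34, adjusted p = 0.0895). FAS, another death receptor, had only 12 and 18 counts in shANP32B cells, against 15 and 7 counts in shNC cells. Its 95% confidence interval, -1.04 to 2.09 on the log2 scale, is too wide to exclude a several-fold rise. TP53INP1, which promotes p53-dependent death and autophagy, had 134 and 146 CPM in shANP32B cells, against 239 and 136 CPM in shNC cells. The first shNC library alone was high, and without it the log2 fold change was 0.035, against -0.43 with it and -0.79 without the second shNC library (adjusted p = 1.63e-10). RPS27L, a paralog of the ribosomal protein gene RPS27 with which it may share reads, had 19.8 and 19.4 CPM in shANP32B cells, against 20.01 and 25.5 CPM in shNC cells (log2 fold change -0.21, not called). The nuclease AEN, the membrane protein PERP, the mitochondrial protein TRIAP1 and the apoptosome core APAF1 had log2 fold changes of -0.19, 0.38, 0.17 and -0.27.

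Among the repair and metabolism genes CMBL was the 1 called. All 5 repair genes were tested and none was called, with log2 fold changes from -0.33 to 0.082 and a lowest adjusted p of 0.123. That value belonged to RRM2B, the p53-inducible ribonucleotide reductase subunit, with 32.7 and 36.4 CPM in shANP32B cells, against 44.0 and 42.7 CPM in shNC cells. DDB2 and XPC, which recognise damage in nucleotide excision repair, had log2 fold changes of -0.22 and 0.082, the endonuclease gene ERCC5 of -0.28 and the translesion polymerase gene POLK of -0.0055. Among the 8 metabolism genes tested, CMBL, a hydrolase, had 81.4 and 72.7 CPM in shANP32B cells, against 114 and 124 CPM in shNC cells. It fell without overlap (log2 fold change -0.63, SE 0.12, adjusted p = 0.00306) and was called in all 10 alternative settings. TIGAR, a fructose bisphosphatase that lowers glycolytic flux, was the member with the next largest fold after BTG2 but had few reads. It had 1.77 and 2.46 CPM in shANP32B cells, against 0.751 and 0.854 CPM in shNC cells, from 46 and 61 counts in shANP32B cells and 21 and 21 counts in shNC cells (log2 fold change 1.40, adjusted p = 0.066). TP53I3, the quinone oxidoreductase PIG3, had 10.2 and 13.2 CPM in shANP32B cells, against 5.29 and 9.56 CPM in shNC cells (log2 fold change 0.66, adjusted p = 0.125). It was 0.29 without the first shNC library and 1.14 without the second (adjusted p = 0.000344). The sestrin genes SESN1 and SESN2, stress sensors that restrain mTORC1, had log2 fold changes of -0.14 and 0.053. Those of the ferredoxin reductase FDXR, the diacylglycerol kinase DGKA and the autophagy regulator DRAM1 were -0.059, 0.091 and 0.41.

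Of the 6 genes with other roles none was called. SUSD6, a sushi domain protein gene, came nearest, with 141 and 155 CPM in shANP32B cells, against 113 and 127 CPM in shNC cells (log2 fold change 0.30, adjusted p = 0.0875). GDF15, a secreted stress cytokine, had 73 and 94 counts in shANP32B cells, against 44 and 54 counts in shNC cells (log2 fold change 0.81, adjusted p = 0.174). Its 95% confidence interval was -0.020 to 1.64. ANKRA2, FBXO22, NINJ1 and TRIM22 lay between -0.36 and 0.10.

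A further 38 known p53 targets were used as the wider pathway. All 38 were tested in KU812 cells, where 7 rose and 4 fell, against 7.53% and 9.06% of all genes, and their median log2 fold change was -0.052. The best known were not among those that rose. CDKN1A, the cyclin-dependent kinase inhibitor p21, had 47.7 and 76.2 CPM in shANP32B cells, against 62.3 and 80.6 CPM in shNC cells. The groups overlapped (log2 fold change -0.21, adjusted p = 0.509). It was called lower without the first shNC (-0.39, adjusted p = 0.0292) or the second shANP32B library (-0.60, 0.0477) and was 0.089 without the first shANP32B library. MDM2, the ubiquitin ligase that degrades p53, had 68.1 and 71.1 CPM in shANP32B cells, against 84.9 and 96.1 CPM in shNC cells. It fell (log2 fold change -0.38, SE 0.12, adjusted p = 0.0466), a call that was lost with library totals alone (adjusted p = 0.08) and without the second shNC (0.0974), the first shANP32B (0.29) or the second shANP32B library (0.188).

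The smallest p-values among the further targets belonged to DDIT4, LIF, FUCA1 and CROT. DDIT4, an inhibitor of mTORC1 signalling, had 67.8 and 59.0 CPM in shANP32B cells, against 223 and 146 CPM in shNC cells, and fell (log2 fold change -1.54, adjusted p = 5.92e-05). LIF, a cytokine of the interleukin 6 family, had 734 and 830 CPM in shANP32B cells, against 342 and 503 CPM in shNC cells, and rose (log2 fold change 0.89, adjusted p = 0.00128). The groups of both genes lay apart, with the wider spread in shNC cells. FUCA1, a lysosomal fucosidase, rose by 0.59 and CROT, a peroxisomal carnitine acyltransferase, by 0.82 on the log2 scale (adjusted p = 0.0114 and 0.0116). FUCA1 was not called without the first shANP32B library (adjusted p = 0.175), and CROT without the first (0.0729) or the second (0.0705). ABHD4, CES2, TNFRSF10C and TRAF4 also rose, and ORAI3 and RAP2B fell. Each of these calls was lost when 1 library was left out. Without the first shANP32B library that held for CES2 (adjusted p = 0.0651), TRAF4 (0.174), ORAI3 (0.218) and RAP2B (0.186). Without the second it held for ABHD4 (adjusted p = 0.272), CES2 (0.211), TNFRSF10C (0.164), ORAI3 (0.0852) and RAP2B (0.3). RAP2B was not called without the first shNC library (adjusted p = 0.112) or with library totals alone (0.088) either.

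Other genes fixed as marks of the KU812 line moved alongside. Of the 11 genes fixed for KU812, CPA3, a mast cell and basophil protease gene, rose (log2 fold change 1.06). CLC, PRG2, EPX and HBG2 fell. Over all genes 7.53% rose and 9.06% fell. The 11 genes had summed levels of 7246 and 7389 CPM in shANP32B cells, against 8988 and 8887 CPM in shNC cells. The log2 fold changes of those that fell ran from -4.48 for EPX to -0.52 for HBG2. The other 6 were not called. HDC was at 0.0013, GATA1 at 0.016 and GATA2 at 0.015. MS4A2 (0.43) was higher in both shANP32B libraries, and KIT (-0.32) and HBG1 (-0.38) were lower in both. The part of these differences in the values of the p53 targets was not tested. In bulk libraries, fewer cells of a type and less RNA per cell cannot be told apart.

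In LSK cells no p53 target gene passed the threshold. For most of them the WT libraries differed by more than the groups did, a comparison not made over all genes. The lowest p-values were those of Pmaip1 and Trp53inp1, both lower in both KO libraries. All 35 listed genes were tested and 0 were called (edgeR quasi-likelihood test, lowest adjusted p 0.986), and 0% of all 14598 genes tested were called. Anp32b itself, 3.39-fold lower in KO cells, was not called either (adjusted p = 0.148, same test). The lack of a call therefore does not show that a gene was unchanged. At an unadjusted p under 0.05 there were 2 of the 35 and 657 of all genes. DESeq2 called 15 genes and limma-voom 2, none of them p53 targets listed here. Pmaip1 fell just short with DESeq2 (log2 fold change -0.91, adjusted p = 0.0501). Both KO libraries lay above both WT libraries for 4 of the 35 and below them for 3, against 17.7% and 15.6% of all genes, and the groups of the other 28 overlapped. The median log2 fold change was 0.026 (quartiles -0.11 and 0.12), beside -0.0079 over all genes (quartiles -0.16 and 0.16). Without the first WT library that median was -0.061.

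The values depended on which WT library was kept. Without the second WT library, Pmaip1 was at -1.15, Plk2 at -0.66, Trp53inp1 at -0.63 and Bbc3 at 0.81 on the log2 scale. Without the first, Pmaip1 was at -0.60 and Trp53inp1 at -0.26, and Plk2 (0.074) and Bbc3 (-0.22) changed sign. Each of these fits kept 1 WT library as the only control.

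**Figure D3:**
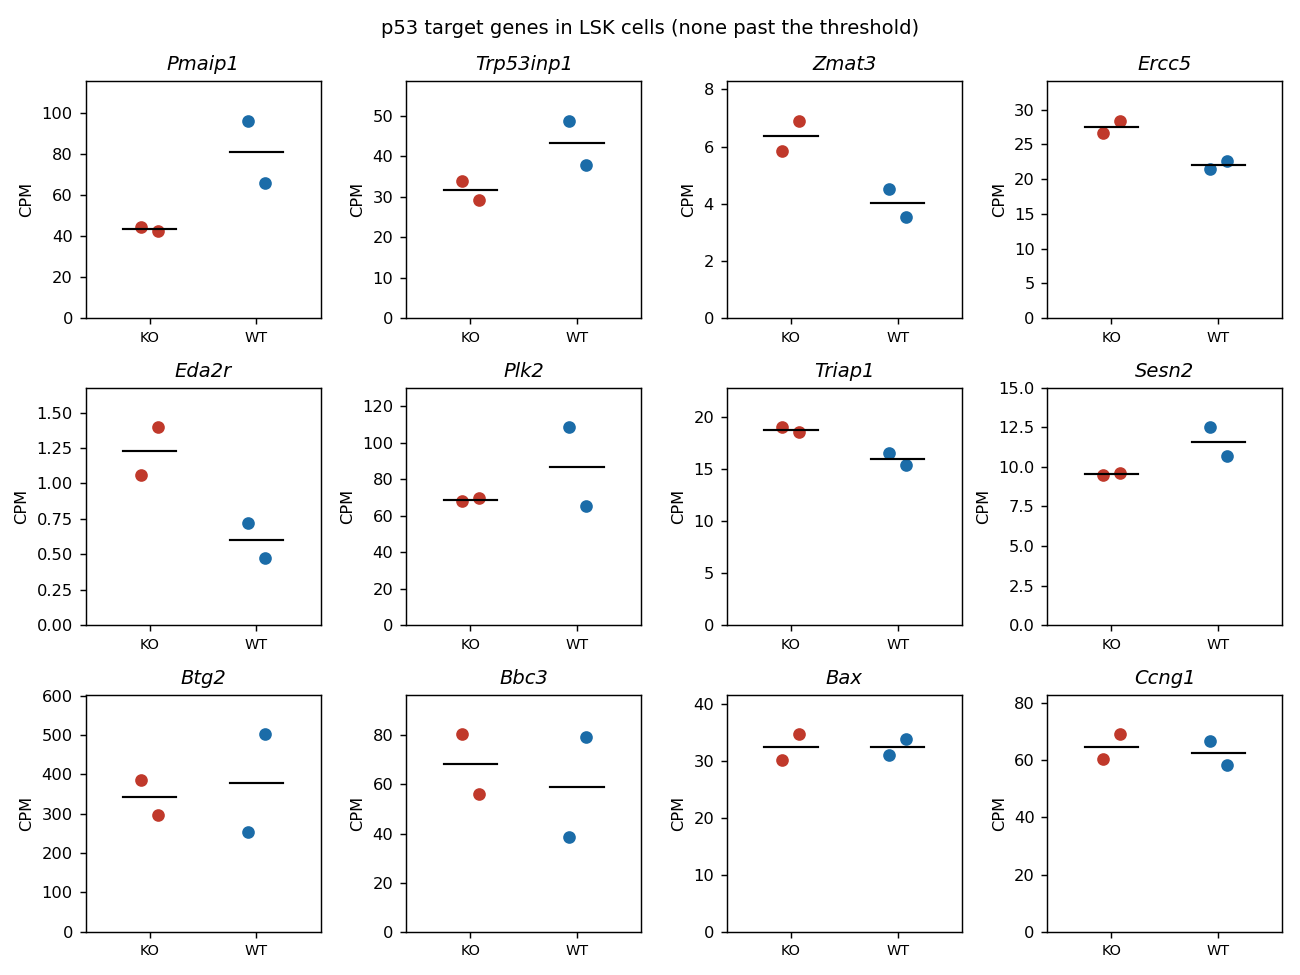
Levels in CPM of 12 p53 target genes in LSK cells, KO left and WT right, with libraries as points and means as lines (n = 2 each). The 8 with the smallest unadjusted p come first, then Btg2, Bbc3, Bax and Ccng1, whose groups overlap. Pmaip1 lies between 42.5 and 44.3 CPM in KO cells and at 65.8 and 96.3 CPM in WT cells.

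Arrest genes in LSK cells overlapped between the groups in 6 of 7 cases, and 9745 of all 14598 genes tested overlapped too. Btg2 (GRCm38 chr1:134075170-134079120, minus strand) had 387 and 296 CPM in KO cells, against 254 and 502 CPM in WT cells. Both KO values lay between the WT values (log2 fold change -0.15, SE 0.30, 95% confidence interval -0.85 to 0.56). Plk2 (chr13:110395046-110400844, plus strand) had 67.9 and 69.7 CPM in KO cells, against 108 and 65.3 CPM in WT cells (log2 fold change -0.34). Only the first WT library was high. Zmat3 (chr3:32334792-32366014, minus strand) was the 1 arrest gene without overlap, with 5.85 and 6.91 CPM in KO cells, against 4.52 and 3.53 CPM in WT cells (log2 fold change 0.66, SE 0.33, adjusted p = 0.986).

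The other arrest genes gave values near those of WT cells. Ccng1 had 60.2 and 69.1 CPM in KO cells, against 66.7 and 58.2 CPM in WT cells (log2 fold change 0.049, 95% confidence interval -0.29 to 0.38). Gadd45a had 37.0 and 51.9 CPM in KO cells, against 41.6 and 51.9 CPM in WT cells (log2 fold change -0.069). Plk3 had 71.7 and 55.1 CPM in KO cells, against 58.7 and 81.9 CPM in WT cells (log2 fold change -0.15). The groups overlapped for each of these genes, and Sertad1, the seventh, had a log2 fold change of -0.081.

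Pmaip1 stood out among the apoptosis genes. On chromosome 18 of GRCm38 (66458533 to 66465565, plus strand), it had 44.3 and 42.5 CPM in KO cells, against 96.3 and 65.8 CPM in WT cells. The KO libraries were alike and lay below both WT libraries (43.4 ± 1.25 CPM in KO cells and 81.0 ± 21.6 CPM in WT cells, SD, n = 2 each; log2 fold change -0.90, SE 0.19, adjusted p = 0.986). Trp53inp1 (chr4:11156431-11174379, plus strand) had 34.0 and 29.3 CPM in KO cells, against 48.8 and 37.7 CPM in WT cells (log2 fold change -0.46, SE 0.18, adjusted p = 0.986). Its groups did not overlap either, and without the first WT library the log2 fold change was -0.26.

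Other apoptosis genes included some with few reads. Eda2r, a receptor of the TNF receptor family on the X chromosome, had 13 and 20 counts in KO cells, against 11 and 5 counts in WT cells, and the largest positive log2 fold change of the 35 genes (1.00, 95% confidence interval -0.42 to 2.45). Triap1, a mitochondrial protein that restrains apoptosis, had 19.0 and 18.6 CPM in KO cells, against 16.5 and 15.3 CPM in WT cells (log2 fold change 0.24). Both genes were higher in both KO libraries. Bbc3 had 80.4 and 56.0 CPM in KO cells, against 38.7 and 79.3 CPM in WT cells (log2 fold change 0.22). Bax had 30.1 and 34.8 CPM in KO cells, against 31.0 and 33.8 CPM in WT cells (log2 fold change 0.0027, 95% confidence interval -0.37 to 0.38). Rps27l had 62.6 and 71.1 CPM in KO cells, against 75.6 and 68.3 CPM in WT cells (log2 fold change -0.11). These 3 overlapped between the groups, and Bax and Rps27l are, with Ccng1, the genes whose paired half-sites are printed above. Fas, Tnfrsf10b, Phlda3, Aen, Perp and Apaf1 had log2 fold changes from -0.11 to 0.18, and their groups overlapped.

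All 5 repair genes had positive log2 fold changes in LSK cells, from 0.012 for Ddb2 to 0.32 for Ercc5, and none was called. That common sign did not hold for Ddb2, Rrm2b and Polk, each of which turned negative when 1 library was left out (lowest values -0.16, -0.079 and -0.34). Ercc5, the XPG endonuclease of nucleotide excision repair, had 26.7 and 28.4 CPM in KO cells, against 21.5 and 22.6 CPM in WT cells, without overlap (adjusted p = 0.986). The remaining 4 overlapped. Among 6 metabolism genes the log2 fold changes ran from -0.28 to 0.13. Sesn2 gave the lowest, with 9.51 and 9.63 CPM in KO cells, against 12.5 and 10.7 CPM in WT cells, without overlap. Sesn1, Fdxr, Dgka, Spata18 and Dram1 overlapped. The 4 genes with other roles lay between -0.15 and 0.15 and overlapped throughout. Tigar and Susd6 were listed under older symbols that RefSeq gives as their synonyms, and they are not counted among the 35. Tigar had 9.51 and 12.5 CPM in KO cells, against 10.9 and 9.63 CPM in WT cells, and Susd6 71.8 and 58.4 CPM in KO cells, against 89.2 and 61.8 CPM in WT cells. Both overlapped (log2 fold changes 0.10 and -0.22).

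Of the further 38 targets, 32 were listed and 31 tested in LSK cells, and none was called (edgeR quasi-likelihood test, 2 at an unadjusted p under 0.05, median log2 fold change 0.014). Atf3, a stress-induced transcription factor, had 334 and 239 CPM in KO cells, against 611 and 337 CPM in WT cells (log2 fold change -0.73). Without the first WT library its log2 fold change was -0.24, and without the second -1.10 (adjusted p = 0.00305). Pank1, a pantothenate kinase of coenzyme A synthesis, had 36.6 and 37.6 CPM in KO cells, against 29.4 and 28.8 CPM in WT cells (log2 fold change 0.35). Orai3, a calcium channel subunit, had 38.8 and 39.4 CPM in KO cells, against 31.2 and 31.6 CPM in WT cells (log2 fold change 0.31). Groups did not overlap for any of these genes. Cdkn1a had 114 and 86.2 CPM in KO cells, against 247 and 92.0 CPM in WT cells. The first WT library alone was high, and the log2 fold change was -0.76 with it and 0.12 without it, and -1.31 without the second WT library (adjusted p = 0.000526). Mdm2 had 116 and 111 CPM in KO cells, against 129 and 141 CPM in WT cells (log2 fold change -0.25, adjusted p = 0.986).

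Markers of other cells were summed in the same LSK libraries. All 7 mature myeloid markers had lower values in KO cells, none of them called, with summed levels of 837 and 730 CPM in KO cells, against 1196 and 1170 CPM in WT cells. Stromal and endothelial markers summed to 149 and 133 CPM in KO cells, against 204 and 171 CPM in WT cells. Pecam1, whose groups overlapped, gave most of that sum (109 and 94.7 CPM in KO cells, against 134 and 105 CPM in WT cells). Sparc (log2 fold change -1.34), Col1a1 (-0.85) and Col1a2 (-0.63) were lower in both KO libraries, none of them called. Cxcl12 overlapped between the groups, and Cdh5 was not tested. Sums for the T and NK cell list were 94.5 and 123 CPM in KO cells, against 129 and 98.6 CPM in WT cells. Nkg7 gave most of that sum, with 82.5 and 111 CPM in KO cells, against 105 and 84.7 CPM in WT cells. Gzmb was lower in both KO libraries (log2 fold change -1.46, not called), and 2 of the 6 genes had positive log2 fold changes. B and plasma cell markers summed to 26.3 and 31.8 CPM in KO cells, against 37.3 and 26.6 CPM in WT cells. Erythroid markers summed to 41.04 and 64.9 CPM in KO cells, against 31.1 and 48.5 CPM in WT cells. The summed levels of the myeloid and stromal lists did not overlap between the groups, and those of the other 3 lists did. The part of these markers in the values of the p53 targets was not tested.

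**Figure D4:**
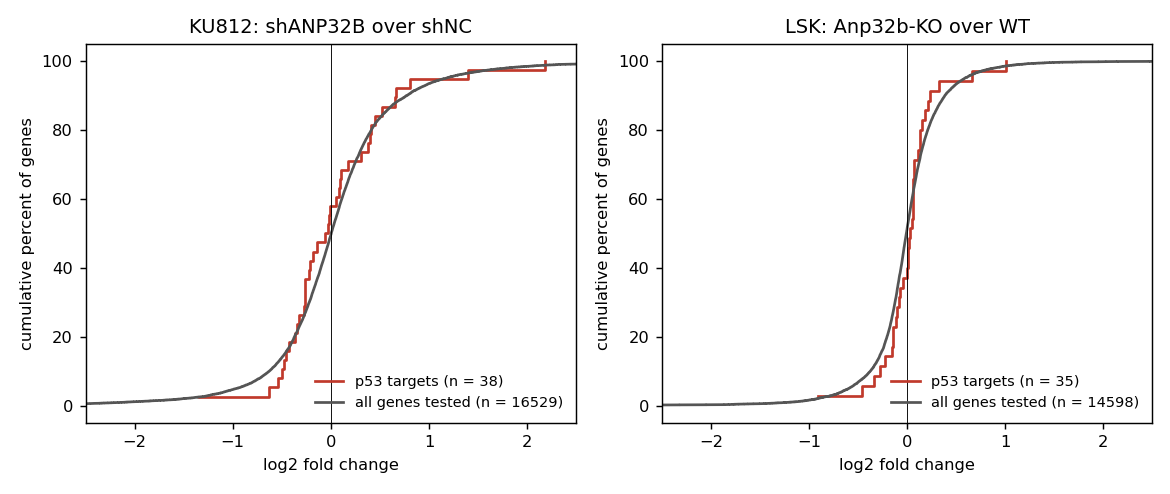
Cumulative percent of genes by log2 fold change for the p53 target genes and for all genes tested, shANP32B over shNC in KU812 cells (left) and KO over WT in LSK cells (right). The p53 target curve lies close to that of all genes in both panels, with medians of -0.044 and 0.0041 in KU812 cells and of 0.026 and -0.0079 in LSK cells.

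The spread within groups weighed more heavily in LSK than in KU812 cells. With 1 CPM added, the libraries of a pair differed by a median of 0.15 on the log2 scale in shANP32B cells and 0.17 in shNC cells over the 38 genes. In LSK cells the same median was 0.16 in KO cells and 0.30 in WT cells over the 35 genes. Over all genes the medians were near these, at 0.15 in shANP32B, 0.19 in shNC, 0.15 in KO and 0.25 in WT cells. The gap within the pair exceeded the difference between groups for 10 of 38 genes in shANP32B cells and 17 of 38 in shNC cells, and for 20 of 35 genes in KO cells and 27 of 35 in WT cells. These counts were made for the p53 targets only, so they do not set them apart from other genes.

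BTG2 was the 1 p53 target called for a difference in response between the experiments. Its log2 fold change was 2.18 in KU812 cells and -0.15 in LSK cells. The difference, tested as the KU812 effect minus the LSK effect in 1 model over all 8 libraries, was 2.35 (SE 0.51, 95% confidence interval 1.23 to 3.48, adjusted p = 0.0414, edgeR quasi-likelihood test). It was the 1 gene called of 33 tested, higher in KU812 cells, against 2.22% of the 10772 genes tested (0.891% higher and 1.33% lower in KU812 cells). The call was lost without the first KO (difference 2.56, adjusted p = 0.129), the second KO (2.18, 0.204), the first shNC (1.98, 0.131) or the second shANP32B library (1.87, 0.153). Species, cell type and the means of removing ANP32B change together between the experiments and cannot be told apart.

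Another 6 genes reached an unadjusted p under 0.05 for that difference without passing the threshold. With BTG2 that makes 7 of 33, beside 1933 of all 10772 genes tested. PLK2 had a log2 fold change of -1.34 in KU812 cells and -0.34 in LSK cells (difference -0.98, adjusted p = 0.103). PMAIP1 had -0.017 in KU812 cells and -0.90 in LSK cells (difference 0.91, adjusted p = 0.151). The differences were -0.57 for CCNG1, 0.82 for PLK3, 0.55 for SERTAD1 and -0.66 for ZMAT3 (adjusted p from 0.134 to 0.201). TP53INP1 had negative values in both experiments, -0.43 in KU812 cells and -0.46 in LSK cells, and its difference was 0.050 (95% confidence interval -0.67 to 0.77).

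**Figure D5:**
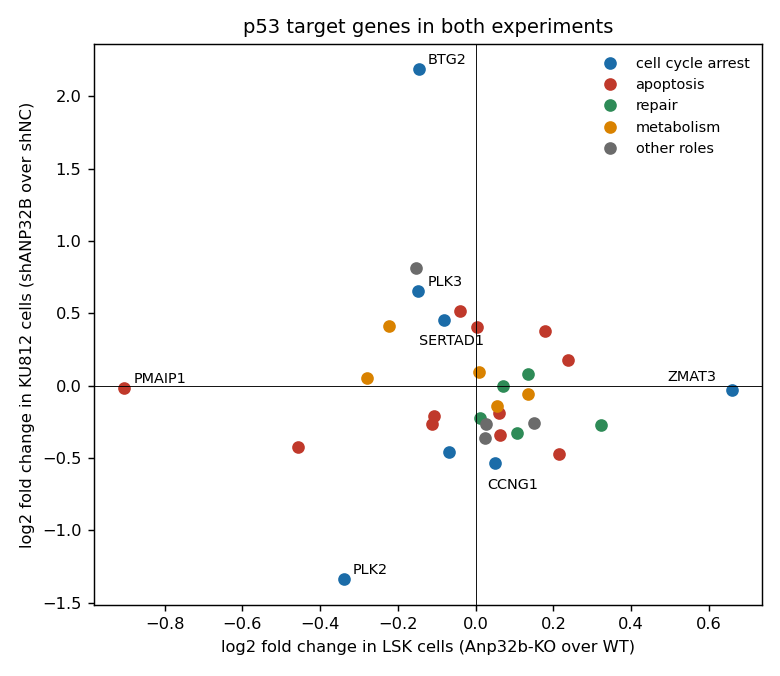
Log2 fold change of p53 target genes in KU812 cells (shANP32B over shNC, vertical axis) and LSK cells (KO over WT, horizontal axis), coloured by role. Names mark the 7 genes with an unadjusted p under 0.05 for the difference between the experiments. BTG2 sits at 2.18 and -0.15, PLK2 at -1.34 and -0.34, and PMAIP1 at -0.017 and -0.90.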

How the data were processed

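Raw counts were deposited by the authors, 1 file for each library with gene symbols as rows, and the values are whole numbers. No gene sums to under 10 counts in its experiment. Builds GRCm38 and GRCh38 and the tools Cufflinks, DESeq, HISAT2 and TopHat appear in the submitters' processing notes, without roles. Total RNA was extracted with Trizol, per the labels' protocols. Which counter, strand setting and annotation were used is not stated in the labels, and reads of overlapping or antisense genes may be mixed.

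Each experiment was fitted with edgeR 4.0.16 (R 4.3.3) after filterByExpr and TMM scaling. The quasi-likelihood test was two-sided, with Benjamini-Hochberg adjustment over all genes tested. The difference between experiments was an interaction over all 8 libraries on 10856 shared symbols. Log2 fold changes are edgeR's, slightly moderated; 95% confidence intervals and SEs come from the unmoderated coefficient and its F statistic. The tests were tried on simulated counts. In those for LSK cells 6 of 67 genes changed 1.5-fold, 35 of 67 changed 2-fold and 51 of 66 changed 4-fold were called. In those for KU812 cells 25 of 67, 45 of 67 and 53 of 66 were called. Unchanged genes called by mistake numbered 11 in those for LSK cells and 9 in those for KU812 cells. In the measured LSK libraries no gene was called, Anp32b at 3.39-fold included, so the simulated shares may not hold there. Alternatives were RLE size factors, library totals alone, DESeq2 1.42.0, limma-voom (limma 3.58.1), no filter, a replicate block and leaving out each library.

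The members and lists were chosen with earlier results of these data known. Named with values were members past the threshold, or, with fewer than 5, also the 8 with the smallest p, those called in 1 comparison, and CDKN1A, MDM2 and up to 4 further targets by smallest p. Other members are named to complete a role group, with their values known. GENCODE (GRCm38) gave the mouse coordinates and RefSeq the promoters. The human table headers name the knockdown libraries by a hairpin code, and samples were taken from the labels.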

Additional observations from a re-analysis of the deposited data

Results flagged for a closer look

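BTG2 was the 1 p53 target called when the difference between the experiments was itself tested. The KU812 effect minus the LSK effect was 2.35 on the log2 scale (SE 0.51, adjusted p = 0.0414, edgeR quasi-likelihood test). That call was lost without the first KO, the second KO, the first shNC or the second shANP32B library. A gene not called there is not shown to respond alike in both experiments. BTG2 was higher in 2 of 2 shANP32B libraries than in either shNC library, and both KO libraries lay between the WT libraries.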

How the results depend on the processing

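BTG2, PLK2, CCNG1 and CMBL were called in KU812 cells under all 10 alternatives, and LSK cells gave no called p53 target except without the second WT library. The cause of the changes listed here was not tested. In KU812 cells library totals alone called 5 p53 targets higher and moved their median log2 fold change to 0.012. That median was -0.064 with DESeq2 and -0.067 with no filter. In LSK cells DESeq2 called 15 genes and limma-voom 2. DESeq2 called 575 genes for the difference between experiments, with 1 p53 target (PLK2) lower.

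Leaving out 1 library at a time gave 1413 to 4047 called genes in KU812 cells, 1 to 5 p53 targets higher, 3 to 9 lower and a median of -0.12 to -0.022. The lowest gene counts came without the second (1413) or first (1621) shANP32B library. In LSK cells it gave 0 to 830 genes, 0 to 1 p53 targets higher, 0 to 3 lower and a median of -0.061 to 0.11. For the difference between experiments it gave 26 to 717 genes, 0 to 2 p53 targets higher and 0 to 1 lower. The lone library left in a group is assumed to vary like the others. Leaving out 1 library changed the sign of 11 of 38 p53 targets in KU812 cells and 22 of 35 in LSK cells, none of them called with all libraries. For those the text turns on, in KU812 cells the log2 fold change ran from -0.60 to 0.089 for CDKN1A, -0.31 to 0.22 for PMAIP1, -0.79 to 0.035 for TP53INP1 and -0.12 to 0.047 for ZMAT3, with library totals alone giving 0.040 for PMAIP1 and 0.028 for ZMAT3. In LSK cells it ran from -0.10 to 0.10 for Bax, -0.22 to 0.81 for Bbc3, -0.56 to 0.42 for Btg2, -0.053 to 0.15 for Ccng1, -1.31 to 0.12 for Cdkn1a, -0.34 to 0.15 for Gadd45a, -0.66 to 0.074 for Plk2 and -0.37 to 0.11 for Plk3. Bax was -0.0052 with RLE size factors and -0.0053 with DESeq2.

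The replicate block is given here only, since the numbers were not taken to pair libraries. Same-numbered libraries deviated with a correlation across genes of 0.172 in KU812 and -0.078 in LSK cells, from 2 pairs each. With the block 4164 of 16529 genes tested were called in KU812 cells, 1982 higher and 2182 lower. Among the 38 p53 targets tested there, 7 were called higher and 8 lower. In LSK cells 15 genes and no p53 target were called, and Bax was -0.0015. The difference between experiments gave 285 genes. Depth limits FAS, PERP, PHLDA3, Eda2r and Spata18 most, which are among the p53 targets with the lowest counts.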
